A study of Sus scrofa with 9 samples.

Results

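CD14, its partner LY96, the adaptor MYD88 and the Toll-like receptors were followed over 3 times in the blood of miniature pigs given an oral dose of azide. Probes belonged to this group when their gene name was one of 9 symbols (CD14, TLR1, TLR2, TLR4, TLR6, TLR8, TLR9, LY96 and MYD88), or when their description named a toll-like receptor, the monocyte differentiation antigen CD14 or the myeloid differentiation primary response gene. The rule found 18 of the 43603 probes on the array, for 13 genes: all 9 symbols, and TLR3, TLR7, TLR10 and TICAM2 through their descriptions. TLR4 had 4 probes, CD14 and MYD88 2 each, and every other gene 1.

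The pigs were male Clawn miniature pigs, a breed kept for laboratory use, and specific-pathogen-free. Blood was taken before feeding (0 h), and 6 h and 24 h after an oral azide dose of 300 µg/kg, giving 3 arrays per time point and a total of 9. Azide is a poison of mitochondrial respiration that acts on cytochrome c oxidase; the salt was not stated. Their age is 7 months by one label and 7 weeks by another. Whether equal replicate numbers mark the same pig is not stated, and p-values here reflect only how far these samples spread. No undosed pigs were sampled at 6 h or 24 h, and the arrays of each time lay on a slide of their own, so the dose, the hours since feeding and the slide cannot be told apart. Whole blood is a mixture of cells, and a larger number of cells of a type and more RNA per cell cannot be told apart in it either.

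Toll-like receptors are membrane proteins that recognise molecules typical of microbes, and some that injured cells release. TLR4 works on the cell surface with the small protein LY96 (MD-2), and CD14 hands bacterial lipopolysaccharide to that pair; TLR2 works with TLR1 or TLR6 on bacterial lipoproteins, while TLR3, TLR7, TLR8 and TLR9 read nucleic acids inside endosomes. Most of them signal through the adaptor MYD88 to NF-kB, and in blood CD14, TLR2 and TLR4 are carried mainly by monocytes and neutrophils.

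The array measures each gene with oligonucleotides of 60 bases, and 7 of the 18 are shown, for CD14, TLR4, LY96, TLR2, MYD88 and TLR9. The brightest TLR4 probe and the brighter MYD88 probe, which stand for their genes below, are not among the 7. The 7 are printed 5′ to 3′ as the scanner files give them, in lower case throughout because the whole oligonucleotide is the unit that binds.
CD14 A_72_P050971: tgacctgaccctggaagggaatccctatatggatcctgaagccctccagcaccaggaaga
CD14 A_72_P088666: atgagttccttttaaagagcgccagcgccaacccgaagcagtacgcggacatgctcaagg
TLR4 A_72_P303724: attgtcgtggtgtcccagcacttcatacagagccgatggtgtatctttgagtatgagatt
LY96 A_72_P088056: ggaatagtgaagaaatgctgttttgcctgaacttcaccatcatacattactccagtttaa
TLR2 A_72_P088356: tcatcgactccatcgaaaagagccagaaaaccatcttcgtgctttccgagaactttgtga
MYD88 A_72_P088111: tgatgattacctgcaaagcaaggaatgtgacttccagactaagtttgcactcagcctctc
TLR9 A_72_P232812: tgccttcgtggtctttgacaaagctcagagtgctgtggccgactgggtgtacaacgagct
The oligonucleotides of CD14 and TLR9 are 55.0% G and C and that of LY96 is 36.7%. No probe outside the group shares a run of 20 bases or a listed accession with one of its probes, and no pair of probes within the group shares such a run. A probe described as TLR5 lies outside the rule and was well above background on 1 of the 9 arrays.

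A level below is the log2 processed signal minus that array's 75th percentile, so a level of 0 equals the 75th percentile of the array's probes. Levels of different probes are not comparable, because oligonucleotides bind with different strength. Of the 18 probes, 12 were well above background on all 9 arrays, and 15 probes for 10 genes met the condition for testing, which asked that 1 of the times or more had all 3 of its arrays well above background. Of those 15, 3 (the probes of TLR8 and TLR9 and the dimmer MYD88 probe) met it only through the arrays after feeding. TLR3, TLR6 and TICAM2 did not meet it. No probe of the group was saturated. Each array held 43803 spots, with 39.9% to 56.6% of them well above background. The shares were 46.6%, 39.9% and 45.8% before feeding, 46.9%, 42.4% and 47.8% at 6 h, and 45.5%, 49.5% and 56.6% at 24 h. Counts of arrays well above background, given per probe below, were not adjusted for this. Differences are log2 differences of group means with limma's standard error (SE), and adjusted p-values are limma's, with Benjamini-Hochberg adjustment over all 19783 probes tested and a threshold of 0.05.

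At 6 h against before feeding, the comparison that asks what differed soon after the dose, both CD14 probes, all 4 TLR4 probes, TLR2, TLR9, TLR8 and both MYD88 probes were higher on every 6 h array than on any array before feeding, and TLR7 was lower. The differences were 5.89-fold for CD14, 5.86-fold for TLR4 and 3.82-fold for TLR2. TLR1, TLR10 and LY96 had overlapping arrays. None of the 15 probes passed the adjusted threshold in limma, the closest being CD14 at an adjusted p of 0.0757. Over all tested probes 5 passed, which is 0.0253%.

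CD14 is the co-receptor that presents lipopolysaccharide to TLR4 and LY96. Its brighter probe, A_72_P050971, was at levels of 2.79, 4.30 and 4.49 before feeding, 6.26, 5.64 and 7.35 at 6 h, and 3.74, 4.88 and 5.21 at 24 h. All 3 arrays at 6 h lay above the other 6, and the arrays at 24 h overlapped those before feeding. The 6 h mean was 6.42 ± 0.86 and the mean before feeding 3.86 ± 0.93 (SD, n = 3 each), a difference of 2.56 ± 0.57 (SE, adjusted p = 0.0757, 95% interval 1.29 to 3.83). The dimmer probe, A_72_P088666, was at 3.15, 1.99 and 4.24 at 6 h, against -1.02, 0.60 and 1.15 before feeding. It differed by 2.88 ± 0.67, and both probes had the lowest level of all 9 arrays in replicate 1 before feeding.

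TLR4 is the lipopolysaccharide receptor itself. Its brightest probe, A_72_P165431, was at 1.40, 1.05 and 1.11 before feeding, 2.82, 2.99 and 5.40 at 6 h, and 1.17, 1.79 and 2.77 at 24 h. The arrays before feeding lay close together and replicate 3 stood far above the other 6 h arrays. The difference at 6 h was 2.55 ± 0.63 (SE, adjusted p = 0.0797, n = 3 each), and the other TLR4 probes differed by 2.36, 2.78 and 1.49. Without 6 h replicate 3 the difference of A_72_P165431 was 1.72. The 3 brighter TLR4 probes followed each other closely: the root mean square difference of their centred log2 levels over the 9 arrays was 0.115, 0.208 and 0.239 for the 3 pairs. The dimmest, A_72_P419074, differed from them by 0.457 to 0.569.

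LY96 is the protein that holds lipopolysaccharide in the TLR4 complex. It was at 3.53, 2.94 and 3.16 before feeding, 3.45, 3.85 and 5.62 at 6 h, and 2.30, 2.73 and 4.44 at 24 h. Replicate 3 was the highest array at both later times, and replicate 1 at 6 h lay below replicate 1 before feeding. The 6 h mean exceeded that before feeding 2.14-fold, with an adjusted p of 0.291 and a 95% interval of the log2 difference of -0.29 to 2.48. The log2 difference was 0.44 without 6 h replicate 3.

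**Figure D1:**
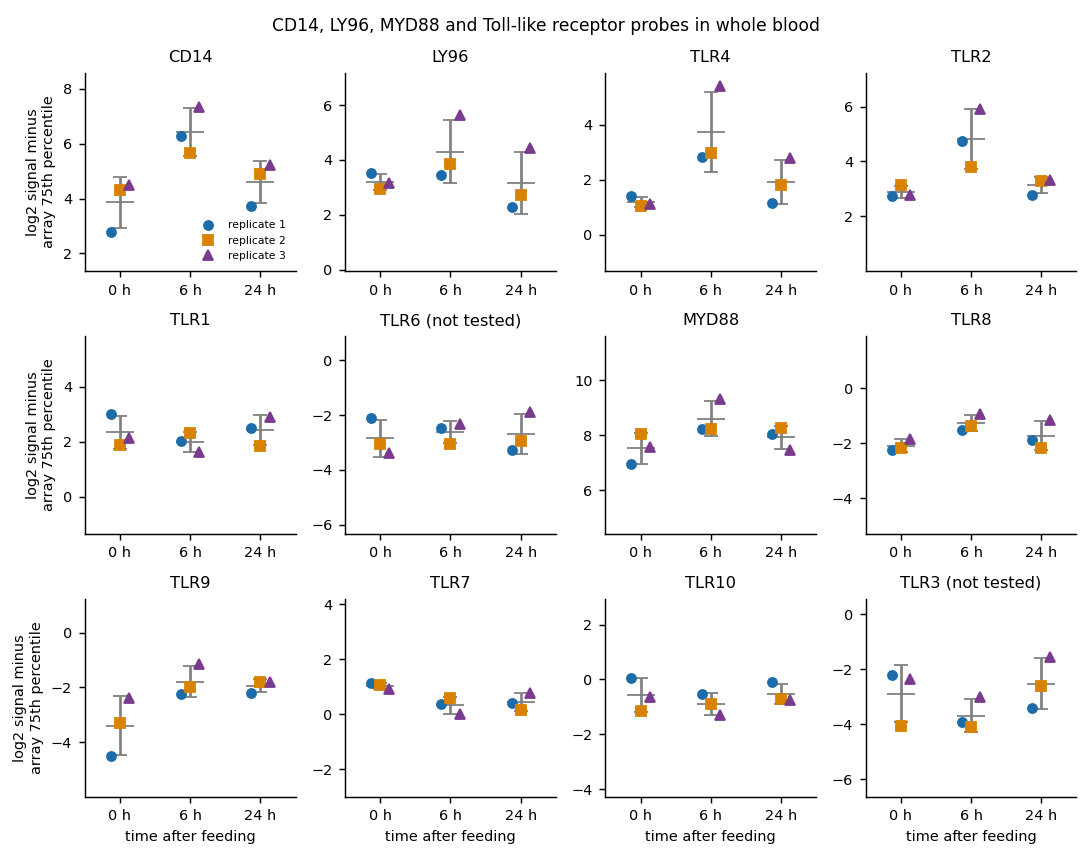
Levels of 12 genes on the 9 arrays, as log2 signal minus the array's 75th percentile (vertical axis, the same span in every panel), against time after feeding. Symbols are arrays by replicate number and grey bars are the mean and SD of 3 arrays; CD14, TLR4 and TLR2 have all 3 arrays at 6 h above the arrays before feeding, while TLR1, TLR10 and LY96 overlap.

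TLR2 recognises bacterial lipoproteins together with TLR1 or TLR6. It was at 2.74, 3.12 and 2.78 before feeding, 4.74, 3.78 and 5.93 at 6 h, and 2.79, 3.29 and 3.33 at 24 h. Arrays at 6 h lay above all others, with replicate 2 the lowest of them. The mean was 4.82 ± 1.08 at 6 h and 2.88 ± 0.21 before feeding (SD, n = 3 each), a difference of 1.93 ± 0.46 (SE, adjusted p = 0.0773).

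TLR1, a partner of TLR2, had overlapping arrays. It was at 2.02, 2.33 and 1.62 at 6 h, against 3.03, 1.88 and 2.15 before feeding, a difference of -0.36 ± 0.39 (95% interval -1.22 to 0.50). The interval of TLR2 was 0.91 to 2.96; the difference between the receptors was not tested. TLR6 was well above background on 1 array before feeding, 2 at 6 h and 2 at 24 h, and was not tested. TLR10, a relative of TLR1 and TLR6 found on B cells in people, was at -0.51, -0.89 and -1.29 at 6 h, against 0.07, -1.16 and -0.63 before feeding. It differed by -0.32 ± 0.37 (adjusted p = 0.610), and by 0.0025 without replicate 1 before feeding.

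Among the endosomal receptors, TLR7, which reads single-stranded RNA, was the one member lower at 6 h on every array. It was at 1.14, 1.05 and 0.90 before feeding, 0.35, 0.59 and 0.01 at 6 h, and 0.42, 0.14 and 0.79 at 24 h. Both later times lay below the arrays before feeding without overlap. The difference at 6 h was -0.72 ± 0.28 (SE, adjusted p = 0.153), which is 1.64-fold lower.

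TLR8 is the close relative of TLR7 that also reads single-stranded RNA, and it lay on the other side. It was at -1.51, -1.36 and -0.95 at 6 h, against -2.25, -2.17 and -1.83 before feeding. The difference was 0.81 ± 0.32 (adjusted p = 0.160), and 0.23 with the normexp background correction. It was well above background on all 6 arrays after feeding, against 2 of the 3 before it.

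TLR9, the receptor for unmethylated CpG DNA, was measured at low signal. It was well above background on all 6 arrays after feeding, against 1 of the 3 before it. It was at -4.50, -3.29 and -2.38 before feeding, -2.23, -1.98 and -1.15 at 6 h, and -2.22, -1.78 and -1.81 at 24 h. Arrays at 6 h and 24 h overlapped each other and lay above those before feeding. The difference at 6 h was 1.60 ± 0.49 (adjusted p = 0.102), 1.04 without replicate 1 before feeding, and 0.22 with the normexp correction, which leaves the log values of dim probes closer together. TLR3, which reads double-stranded RNA, was well above background on 2 arrays before feeding, on none at 6 h and on 2 at 24 h.

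MYD88 carries the signal of most of these receptors, and its probes disagreed in size. The brighter one, A_72_P245972, was at 6.95, 8.06 and 7.57 before feeding, 8.23, 8.25 and 9.33 at 6 h, and 8.07, 8.26 and 7.45 at 24 h. Its lowest array at 6 h exceeded its highest before feeding by a small margin, and it differed by 1.08 ± 0.41 (adjusted p = 0.144). It differed by 0.71 without 6 h replicate 3.

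The dimmer MYD88 probe, A_72_P088111, was at 0.02, -1.59 and 1.64 at 6 h, against -4.36, -2.61 and -2.16 before feeding. All 6 later arrays were well above background for it, against 1 of the 3 before feeding. It differed by 3.07 ± 0.77 (adjusted p = 0.0805), and by 1.14 with the normexp correction. The root mean square difference between the centred levels of the MYD88 probes was 1.24, against 0.314 between the CD14 probes. The only probe of TICAM2, the adaptor that links TLR4 to interferon genes, was well above background on no array. Whether that probe can detect its RNA was not tested, so this does not show that the RNA was absent.

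**Figure D2:**
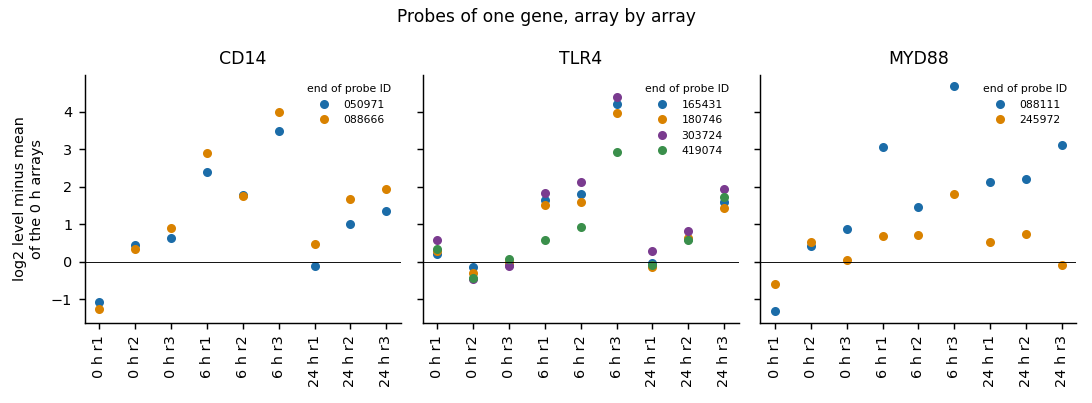
Log2 level minus the mean of the 3 arrays before feeding (vertical axis) on each of the 9 arrays (horizontal axis) for the probes of CD14, TLR4 and MYD88, coloured by probe. The CD14 probes and 3 of the 4 TLR4 probes follow each other (root mean square differences of 0.314, and of 0.115 to 0.239), while the MYD88 probes lie apart at 6 h and 24 h (1.24).

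Counted over the tested probes, 11 of 15 were higher at 6 h with no overlap between the arrays of the times, against 16.0% of all tested probes, and 1 was lower with no overlap, against 10.6%. By gene these were 6 and 1 of 10. The 6 include TLR8 and TLR9, which met the condition for testing only through the arrays after feeding. Among the probes well above background on all 9 arrays, which did not need the later arrays to be tested, 8 of 12 were higher with no overlap, against 15.2% of all such probes. The 8 were all the probes of CD14 and TLR4, the TLR2 probe and the brighter MYD88 probe. Probes of the same gene are thus counted more than once and are not separate members. At an unadjusted p under 0.05, 11 of the 15 were higher (14.7% of all probes) and 1 lower (10.9%). TLR8, TLR9 and the dimmer MYD88 probe, which needed the later arrays to be tested, are among the 11. The median difference was 1.09 over the 10 genes, TLR8 and TLR9 included, and 0.05 over all tested probes. These genes were chosen with earlier results of the same arrays known, so the counts are a description.

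Of the arrays left out in turn, 6 h replicate 2 was the only one whose omission gave calls among these 15 probes at 6 h. Without it, 7 of the 15 probes passed at 6 h: both CD14 probes, TLR2, 3 of the 4 TLR4 probes and the dimmer MYD88 probe. The brighter CD14 probe then differed by 2.94 (adjusted p = 0.0277), TLR2 by 2.45 (adjusted p = 0.0209) and the brightest TLR4 probe by 2.92 (adjusted p = 0.0376). Over all probes 1443 were then called higher and 953 lower.

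**Figure D3:**
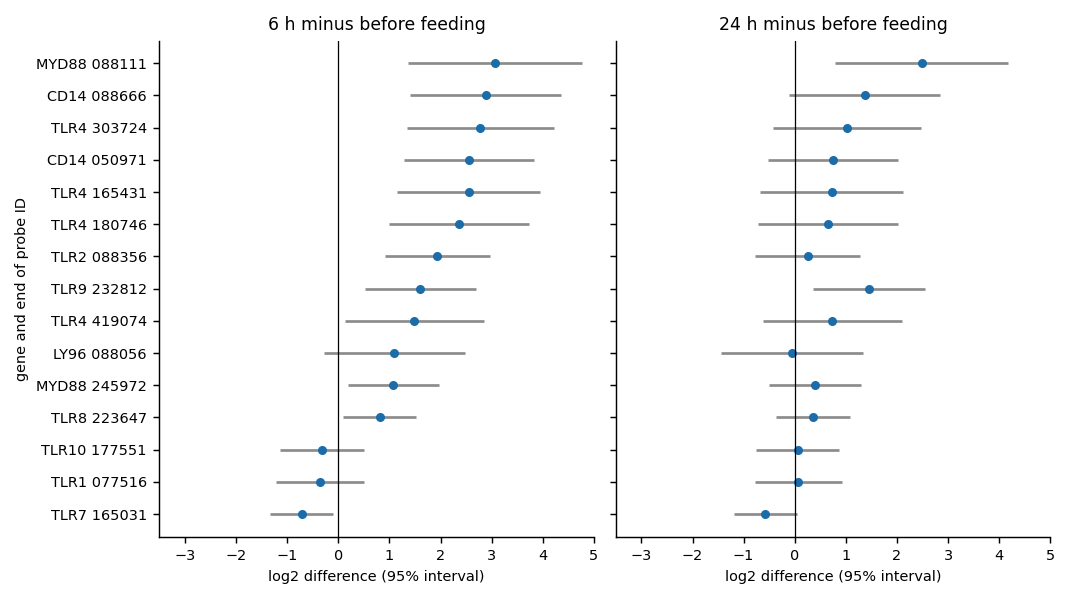
Log2 difference of the 15 tested probes at 6 h (left) and 24 h (right) against before feeding, with limma's 95% intervals; probes are ordered by the 6 h difference and 0 is marked. Probes of CD14, TLR4, TLR2, TLR9, TLR8 and MYD88 have intervals above 0 at 6 h and TLR7 one below 0, and at 24 h the dimmer MYD88 probe and TLR9 do.

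At 24 h against before feeding, the comparison that asks what differed a day after the dose, 12 of the 15 tested probes had arrays that overlapped those before feeding. Of the others 2 were higher (7.5% of all tested probes were, with no overlap) and 1 lower (19.0%), so overlap was common over the whole array too. CD14 was at a mean of 4.61 ± 0.77 at 24 h and 3.86 ± 0.93 before feeding, a difference of 0.75 ± 0.57 (adjusted p = 0.576). TLR4 differed by 0.72 ± 0.63 and TLR2 by 0.25 ± 0.46. With 1 array left out, CD14 ran between 0.22 (without replicate 1 before feeding) and 1.18 (without 24 h replicate 1), and TLR4 between 0.29 (without 24 h replicate 3) and 1.097 (without 24 h replicate 1). LY96 differed by -0.05 ± 0.63, with an interval of -1.44 to 1.33 that leaves room for differences in either direction. Of the 15 probes none passed the adjusted threshold in limma; at an unadjusted p under 0.05, 2 were higher (5.32% of all tested probes) and 0 lower (8.56%). No probe of the 19783 passed (0.0%).

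The members that stood apart at 24 h were dim or small in difference. TLR9 differed by 1.45 ± 0.49 (adjusted p = 0.275), by 0.89 without replicate 1 before feeding, and by -0.06 with the normexp correction. The dimmer MYD88 probe was at -0.92, -0.83 and 0.07, against -4.36, -2.61 and -2.16 before feeding, and differed by 2.48 ± 0.77 (adjusted p = 0.249), and by 0.63 with the normexp correction. TLR7 differed by -0.58 ± 0.28 (adjusted p = 0.388). TLR9 and that MYD88 probe were the 2 probes of 15 higher with no overlap (7.5% of all tested probes), and TLR7 the 1 that was lower (19.0%). Both higher probes had met the condition for testing only through the arrays after feeding. Of the 12 probes well above background on all 9 arrays, 0 were higher with no overlap (5.35% of all such probes) and 0 were higher at an unadjusted p under 0.05 (2.76%). The median over the 10 genes was 0.30, beside -0.01 over all tested probes. With each array centred on its spike-in controls, 4 probes of 15 passed at 24 h, those of MYD88, the dimmer CD14 probe and TLR9. That scaling moved the median of all tested probes to 0.94, and 3878 of the 19783 then passed as higher and 3 as lower.

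The comparison of 24 h with 6 h shares its 6 h arrays with the first comparison and is not independent of it. CD14 was at 3.74, 4.88 and 5.21 at 24 h, against 6.26, 5.64 and 7.35 at 6 h, a difference of -1.81 ± 0.57 (adjusted p = 0.133). TLR2 differed by -1.68 ± 0.46 (adjusted p = 0.113) and TLR4 by -1.83 ± 0.63 (adjusted p = 0.149). The arrays of the brighter CD14 probe, of TLR2 and of the TLR4 probes A_72_P165431 and A_72_P180746 did not overlap between the times, while those of the dimmer CD14 probe and the other 2 TLR4 probes did. LY96 differed by -1.15 ± 0.63 and the brighter MYD88 probe by -0.68 ± 0.41, both with overlap.

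TLR9 differed by -0.15 ± 0.49 and TLR7 by 0.13 ± 0.28, both with overlap. Of the 15 probes 4 were lower with no overlap (16.5% of all tested probes) and 0 higher (10.0%). None passed in limma; at an unadjusted p under 0.05, 6 were lower (13.6%) and 0 higher (7.97%). Of the 19783 probes 0 passed (0.0%). Without 6 h replicate 2, TLR2 was the 1 probe of the 15 that passed, with a difference of -2.20 (adjusted p = 0.0275). Of the 19783 probes 475 were then called higher and 1292 lower. The median was -0.56 over the 10 genes and -0.09 over all tested probes.

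For each gene the order of the 3 means can be given with these errors. The brightest probes of CD14 and TLR4 and the TLR2 probe were highest at 6 h, then at 24 h, then before feeding, and only the 6 h arrays were clear of their neighbours; the dimmer CD14 probe and 2 of the 4 TLR4 probes overlapped between 24 h and 6 h. TLR9 was highest at 6 h and 24 h, which overlapped, and lowest before feeding. It was dim before feeding and met the condition for testing only through the later arrays. With the normexp correction TLR9 differed from before feeding by 0.22 at 6 h and -0.06 at 24 h, so its order depended on the background correction. TLR7 was highest before feeding, with 24 h and 6 h overlapping below it. MYD88 (brighter probe) and TLR8 were highest at 6 h and lowest before feeding, and only those ends of the order were clear of each other. Like TLR9, TLR8 met the condition for testing only through the later arrays. With normexp TLR8 differed from before feeding by 0.23 at 6 h and -0.07 at 24 h. LY96, TLR1 and TLR10 overlapped at all 3 times.

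The proteins that act beside these receptors were split at 6 h. Of 10 chaperones and accessory proteins 8 were tested, and none passed. TREM1, a myeloid receptor that amplifies Toll-like receptor signals, differed by 2.03 ± 0.45 (adjusted p = 0.0759). LBP, the plasma protein that delivers lipopolysaccharide to CD14, differed by 1.03 ± 0.32. CD36, a scavenger receptor that assists TLR2, differed by -1.20 ± 0.51 and HMGB1, a nuclear protein that alerts these receptors when released, by -0.57 ± 0.31. The median of the 8 was -0.15. At 24 h the smallest p-values in the list belonged to CNPY3, a chaperone of the receptors, at -0.70 ± 0.27, and CD180, a TLR4 relative of B cells, at -0.70 ± 0.30.

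Downstream of MYD88, 10 of 19 NF-kB and interferon regulatory factor genes were tested and none passed; 9 were higher at 6 h, 8 of them at an unadjusted p under 0.05 (14.7% of all tested probes were), with a median of 1.03 beside 0.05 over all tested probes. NFKBIA, the inhibitor that NF-kB itself induces, differed by 2.19 ± 0.47 (adjusted p = 0.0754). IRF7, a driver of interferon genes, differed by 1.59 ± 0.37 and IRF1 by 0.92 ± 0.25. IKBKB, the kinase that releases NF-kB, differed by 1.05 ± 0.32. At 24 h the median was 0.21, with REL, an NF-kB subunit, at -0.55 ± 0.25 and IKBKB at 0.49 ± 0.32.

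The kinases between the receptors and these factors were thinly covered. Only 2 of 20 adaptors and proximal kinases were tested, TRAF6 at 0.82 ± 0.38 and IRAK4 at 0.37 ± 0.33 at 6 h, and neither passed. TAB2 was well above background on no array. Of 14 MAP kinase and AP-1 genes 3 were tested and none passed. MAPK14, the p38 kinase, differed by 1.64 ± 0.49, JUN by 1.26 ± 0.46 and MAPK9 by -0.52 ± 0.36.

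Of 26 products that these receptors are known to induce 15 were tested and none passed; 10 were higher at 6 h and 5 lower, with a median of 0.66. IL1RN, the antagonist of the interleukin-1 receptor, differed by 2.06 ± 0.37 (adjusted p = 0.0597), and SOD2, a mitochondrial superoxide dismutase, by 2.05 ± 0.57. IL18 differed by 1.15 ± 0.47 and the chemokine CCL3L1 by 0.99 ± 0.37. TNF was at 0.58 ± 0.26 at 6 h and 0.51 ± 0.26 at 24 h, and CD80, a costimulatory protein, at -0.93 ± 0.36 at 24 h. The cytokine genes IL6, IL12A, IL12B, CCL2 and IFNB1 were well above background on no array.

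Of 16 genes for other pattern recognition receptors 7 were tested and none passed, with a median of 1.15 at 6 h and 0.65 at 24 h. NLRP3, the inflammasome sensor, differed by 1.53 ± 0.37 at 6 h (adjusted p = 0.0773), and C5AR1, the receptor for complement C5a, by 1.15 ± 0.48. CD163, the haemoglobin scavenger receptor of monocytes, differed by 2.37 ± 0.80 at 6 h and 1.76 ± 0.80 at 24 h. DDX58, which encodes the cytosolic RNA sensor RIG-I, differed by 1.24 ± 0.50 at 6 h and 1.18 ± 0.50 at 24 h.

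**Figure D4:**
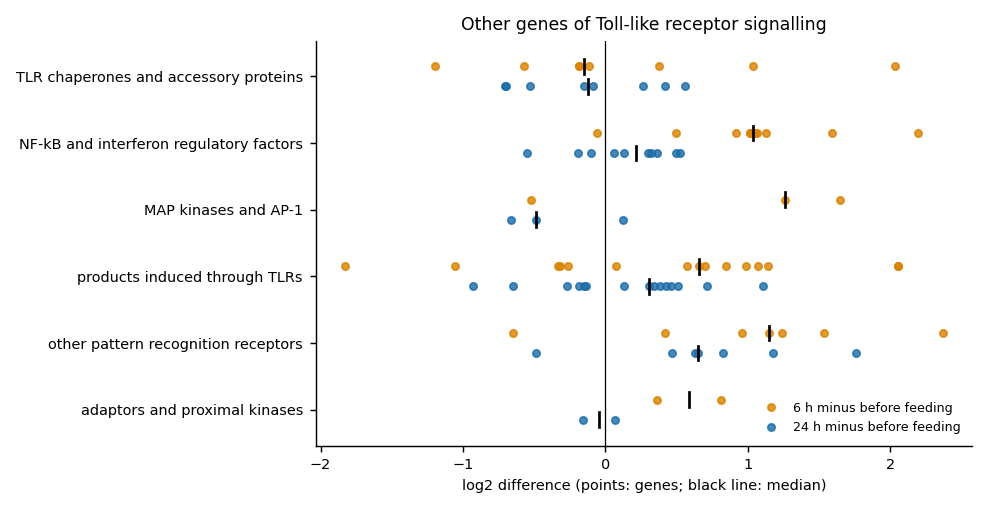
Log2 difference of the tested genes in 6 lists of Toll-like receptor signalling at 6 h (orange) and 24 h (blue) against before feeding; each point is a gene and each black line a list's median. NF-kB and interferon regulatory factors have a median of 1.03 at 6 h and 0.21 at 24 h, while chaperones and accessory proteins have a median of -0.15 at 6 h.

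Marker genes of blood cells differed on the same arrays. Of 18 monocyte markers 12 were tested, and 11 were higher at 6 h, with a median difference of 1.29. Their mean level relative to the arrays before feeding was -0.11 to 0.10 on the arrays before feeding, 0.69 to 1.70 on those at 6 h, and 0.06 to 0.69 on those at 24 h. All 5 tested neutrophil markers of 20 were higher at 6 h, with mean levels of -0.31 to 0.25 on the arrays before feeding, 1.14 to 3.11 on those at 6 h, and 0.29 to 0.65 on those at 24 h. Of 10 tested T cell markers 9 were lower at 6 h, with mean levels of -0.23 to 0.23 on the arrays before feeding, -1.55 to -0.31 on those at 6 h, and -0.21 to -0.15 on those at 24 h.

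None of these markers passed the adjusted threshold. Replicate 3 at 6 h was the extreme array for CD14, TLR2, TLR4 and TLR7, and for the neutrophil, monocyte and T cell markers as well. Replicate 2 was the least shifted 6 h array for CD14, TLR2, TLR7 and the same 3 marker lists. Of the monocyte list, LGALS3 differed by 1.93 ± 0.34, CEBPB by 2.10 ± 0.50, FCN1 by 2.10 ± 0.53 and SIRPA by 1.75 ± 0.48, while CD68 differed by -0.03 ± 0.28 and AIF1 by 0.01 ± 0.43. The array describes the FCN1 probe as a ficolin named FCNB, and its symbol came from the RefSeq accession. The part of cell numbers in the receptor differences was not tested.

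**Figure D5:**
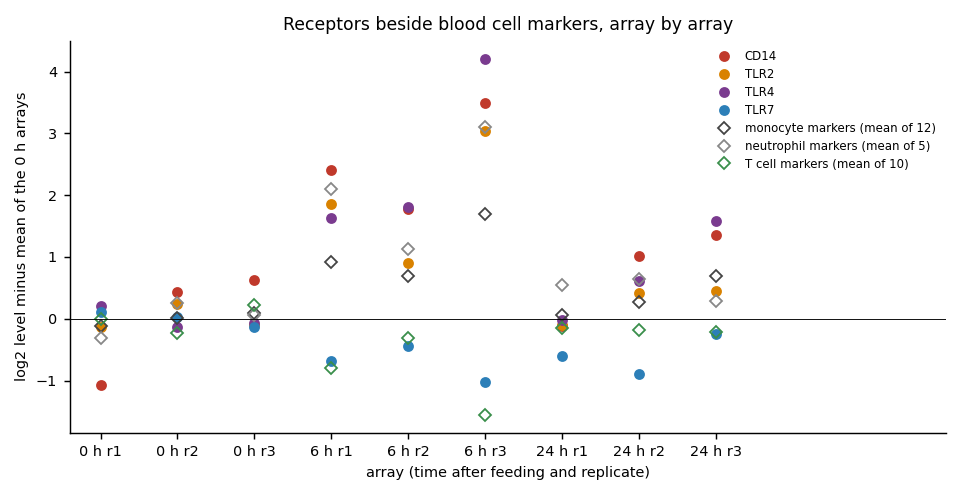
Log2 level minus the mean of the 3 arrays before feeding (vertical axis) on each array (horizontal axis) for CD14, TLR2, TLR4 and TLR7 (filled circles) and for the mean of the tested monocyte, neutrophil and T cell markers (open diamonds). At 6 h the neutrophil markers lie at 1.14 to 3.11 and CD14 is above 0, and the T cell markers lie at -1.55 to -0.31 and TLR7 is below 0. At 24 h the neutrophil markers lie at 0.29 to 0.65 and CD14 at -0.12 to 1.35. The T cell markers then lie at -0.21 to -0.15 and TLR7 at -0.89 to -0.25.

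The other cell types were thinly covered. Platelet markers had a median difference of 0.36 at 6 h over 5 genes. Both tested natural killer and cytotoxic cell markers were lower at 6 h, KLRK1 at -1.98 ± 0.60 and PRF1 at -0.49 ± 0.43. Of the red cell markers, HBE1 differed by -0.30 ± 0.39 and the alpha-globin probe was well above background on no array, although the sample is whole blood.

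Among 1426 named genes outside the group, the 5 whose centred log2 levels over the 9 arrays lay closest to those of CD14 were SPI1, NCF1, IL8RB, FCN1 and TREM1, with root mean square differences of 0.308, 0.335, 0.355, 0.367 and 0.408. CD14's own levels had an SD of 1.28 over the same arrays, and its second probe lay at 0.314. SPI1 encodes the transcription factor PU.1 of myeloid and B cells, NCF1 a subunit of the phagocyte oxidase, IL8RB a receptor for interleukin-8 and FCN1 a ficolin. Within the group TLR2 lay closest to CD14 at 0.542 and the brightest TLR4 probe at 0.651, while TLR1 and TLR10 lay at 1.61.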

How the data were processed

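Whole-blood RNA was labelled with Cy3 and hybridised to 1-colour Agilent porcine arrays, per the labels' protocols. The 9 deposited scanner files hold spot intensity, background-subtracted and not normalized between arrays, per the file headers, which name Feature Extraction 10.5.1.1 (9.5.3.1 per the submitters' processing notes). The deposited series-wide table holds the authors' intensity values; how the authors made them is not stated there, and they served as an alternative.

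Control and outlier spots were left out, spots of a probe averaged, and log2 processed signal scaled to each array's 75th percentile. The fit, by limma 3.58.1 in R 4.3.3, took in the 9 arrays with time as its single term. Python 3.11.15, pandas 2.3.3, numpy 2.4.6, scipy 1.17.1 and matplotlib 3.10.9 were used for tables and plots. Symbols came from the files' gene name and description columns and from RefSeq accessions, for 7.76% of the probes. Genome positions were not used here. Where a gene had more than 1 probe, the brightest of those tested, by its mean over the arrays, stood for it and the others are given. On simulated data for 6 h against before feeding, with 19783 probes, limma recovered 57.5% of the probes given a log2 difference of 2. The simulated noise was independent between probes and few probes were changed, so this share need not hold for these arrays.

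The members and the 6 pathway and 7 marker lists were chosen with earlier results of these data known. All members are named; from each list, up to 4 genes with the smallest unadjusted p at 6 h and up to 2 at 24 h were eligible, and the 5 genes most like CD14 by root mean square difference. CD68, AIF1 and genes given as not above background were added after their values were seen. The values of some genes are left out of the text. Alternatives were other scalings, background corrections, filters and fits, a replicate block, and leaving out each array. Whether same-numbered arrays pair was checked through the correlation of their deviations from the group means. It ran from -0.20 to 0.64 for equal numbers and from -0.63 to 0.43 for unequal numbers. These ranges overlap, so the check did not decide the question, and the numbers were not taken as pairs. Arrays of 1 time were not identical to each other. Their number, 3 per time, limits the precision.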

Additional observations from a re-analysis of the deposited data

How the results depend on the processing

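The differences, medians and counts past the threshold of the group, and the pathway lists' counts past the threshold, were recomputed under 20 to 22 alternatives each; the lists' medians, the marker lists and the genes most like CD14 were not. For 6 h against before feeding, the number of probes of the group past the threshold was 0 of 15 as reported. It became 9 with array weights and 7 with the replicate block (CD14, MYD88, TLR4 and TLR9). It ran from 0 to 7 when 1 array was left out, the 7 without 6 h replicate 2. Over all tested probes the replicate block called 537 higher and 83 lower, and leaving out that array 1443 and 953. Whether the replicate numbers mark pairs was not settled by the arrays' deviations. The median difference of the genes, 1.09, was 0.62 with normexp and 0.45 with array weights, and 0.68 to 1.40 with 1 array left out. For 24 h against before feeding, the count of 0 became 4 with spike-in centring and 2 with array weights. It stayed 0 with each array left out. Of all 19783 tested probes, spike-in centring called 3878 higher and 3 lower, and array weights called 2597 higher and 2848 lower. The median, 0.30, was 1.25 with spike-in centring and 0.17 to 0.40 with 1 array left out. For 24 h against 6 h, the count became 6 with array weights and 0 to 1 with 1 array left out, the 1 without 6 h replicate 2. Of all tested probes, array weights called 2402 higher and 3367 lower, and leaving out that array 475 and 1292. The median, -0.56, was 0.18 with spike-in centring and -0.72 to -0.30 with 1 array left out. Array weights, which called 5118 probes higher and 4771 lower at 6 h over the whole array, give arrays that differ more from the others less weight; the cause of the shifts was not tested.

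No difference whose sign turned was past the threshold as reported or under the setting that turned it. At 6 h against before feeding this was TLR10, at 0.013 with array weights and -0.61 to 0.0025 with 1 array left out. At 24 h against before feeding, LY96 was at 0.085 with quantile normalization, 0.89 with spike-in centring, 0.055 with the percentile over detected probes, 0.20 with normexp and 0.091 in the authors' values, and at -0.70 to 0.37 with 1 array left out. TLR1 was at -0.041 with array weights and -0.18 to 0.41 with 1 array left out, TLR10 at -0.062 with normexp and -0.24 to 0.38 with 1 array left out, and TLR7 at 0.37 with spike-in centring. TLR8 was at -0.066 with normexp and -0.12 with array weights, and TLR9 at -0.061 with normexp. At 24 h against 6 h, spike-in centring gave 0.072 for MYD88, 0.30 for TLR8 and 0.60 for TLR9, and TLR9 was at 0.065 with the percentile over detected probes, 0.19 with array weights and -0.37 to 0.17 with 1 array left out. TLR7 was at -0.053 with array weights and -0.032 to 0.29 with 1 array left out. CD14, TLR2, TLR4, MYD88, LY96, TLR8 and TLR9 stayed higher, and TLR7 lower, at 6 h than before feeding under every alternative run, CD14 at 1.93 to 2.94, TLR4 at 1.72 to 3.01 and TLR2 at 1.38 to 2.45. At 6 h the low-signal probes of TLR9 and TLR8 were at 0.22 and 0.23 with normexp.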
